A study of Mus musculus with 30 samples.

Results

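The 12 libraries described here compare Ly6C-high monocytes (Mono) from the spleens of TLR7.1 mice with the same cells from wild-type (WT) B6 mice. They were chosen by their labels alone, as every TLR7.1 Mono library (6) and every WT Mono library (6), out of 30 libraries in the series. TLR7.1 mice overexpress Tlr7, and the mice of both groups were untreated females, aged 9.4 to 15.7 weeks in WT and 10 to 15 weeks in TLR7.1. Each library came from 1 mouse and from 500 sorted cells, which were Ly6C+, CD11b+ and Ccr2+ and, among live CD45.2+ cells, lacked SiglecF and Ly6G. The remaining 18 libraries hold red pulp macrophages (RPM) of both genotypes and TLR7.1 inflammatory hemophagocytes. The labels do not say how the transgene is driven or in how many copies it is carried. Since the mice carry it in the germline, a response of the monocytes themselves and a response to a changed spleen or marrow cannot be told apart.

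TLR7 is a receptor in the endosome that binds single-stranded RNA and signals through the adaptor MyD88 to NF-kB and interferon regulatory factors. TLR7.1 mice are known as a model of lupus-like disease with anaemia, and in the series' title their hemophagocytes stand beside Ly6C-high monocytes and red pulp macrophages. Ly6C-high monocytes leave the bone marrow after the division of their progenitors, can settle in the spleen, and can mature to Ly6C-low monocytes or to macrophages. Proliferation genes, the granule proteases of early myeloid cells and the markers of the Ly6C-low state therefore mark different stages of this path.

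Total counts ran from 1209266 to 1932427 in WT Mono and from 1157446 to 1719010 in TLR7.1 Mono. Neither the totals (exact permutation test, two-sided, p = 0.877), nor the number of genes detected (means 13220.5 and 13395, exact permutation p = 0.156), nor age (exact permutation p = 0.931) differed beyond the spread, with 6 mice per group. Levels are in normalised CPM, for which counts were divided by each library's effective size, and the lowest, highest and median library of a group are given. Fold changes are TLR7.1 over WT on the log2 scale, ± standard error, from edgeR's quasi-likelihood test. The word called marks genes whose Benjamini-Hochberg adjusted p was under 0.05. No gene held more than 1.56 reads per base of exon in a Mono library, and Tlr7 held at most 0.497. Whether such a ceiling compresses the levels of abundant genes was not tested.

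Tlr7 carried the genotype of the labels in every library. It ranged from 215 to 366 CPM (median 305) in WT Mono and from 767 to 1183 CPM (median 1029.8) in TLR7.1 Mono. The groups did not overlap, and the lowest TLR7.1 library lay above the highest WT library. The log2 fold change was 1.70 ± 0.218 (adjusted p = 5.94e-06), or 3.24-fold. None of the 13 tested genes beside Tlr7 on the X chromosome was called by edgeR or by DESeq2, 0 had an unadjusted p under 0.05 (edgeR), and their median log2 fold change was 0.09. Of the 17 genes listed there, 9 start within 1 Mb of Tlr7. Tlr8, the neighbouring receptor, was at a median of 86.7 CPM in WT and 82.2 CPM in TLR7.1 (log2 fold change -0.17 ± 0.273, adjusted p = 1). The endosomal Toll-like receptor list covers receptors, their chaperone and the proteases that process them. Among its 17 tested genes 2 were higher and 0 lower, where 1.8% of all genes were called higher, and the median log2 fold change was -0.14. Beside Tlr7 the higher one was Ctsl, the lysosomal protease cathepsin L, at 90.2 to 149.6 CPM (median 115) in WT and 163 to 304 CPM (median 211) in TLR7.1, without overlap, and its log2 fold change was 0.91 ± 0.171 (adjusted p = 0.00108). Tlr4, the surface receptor for lipopolysaccharide and no member of that list, was 49.6 ± 15.2 CPM (mean ± SD, n = 6) in WT and 93.2 ± 30.1 CPM in TLR7.1, with overlapping groups and a log2 fold change of 0.91 ± 0.242 (adjusted p = 0.0361).

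Those genes of the gate that could be tested were not called between genotypes. Ccr2, the chemokine receptor that draws monocytes out of the marrow, ranged from 1033 to 1556 CPM (median 1259) in WT and from 1399 to 1697 CPM (median 1516) in TLR7.1 (log2 fold change 0.26 ± 0.289, adjusted p = 1). Ly6c2, which encodes the Ly6C antigen together with a near-identical paralog, ranged from 388 to 536 CPM (median 484) and 440.0 to 591 CPM (median 497), and F13a1, a coagulation factor abundant in classical monocytes, from 1176 to 1468 CPM (median 1297) and 1102 to 1554 CPM (median 1335). The groups overlapped for Ccr2, Ly6c2, F13a1 and Itgam, which encodes CD11b, and none of them passed the test. The red pulp macrophage markers Vcam1, Slc40a1, Timd4 and Cd5l had medians between 0 and 2.37 CPM in both Mono groups. The further markers Cd163 and Spic were not near 0. Their medians were 9.84 and 108 CPM in WT Mono, 12.5 and 75.5 CPM in TLR7.1 Mono and 456 and 1551 CPM in WT RPM. Ly6g was at 0 in all WT libraries and at up to 5.41 CPM in TLR7.1, and Siglecf at up to 5.85 CPM in WT and 0.616 CPM in TLR7.1. Ly6g and Siglecf did not pass the filter and were not tested.

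Of 11030 genes tested, 232 (2.1%) were called, 199 (1.8%) of them higher and 33 (0.299%) lower in TLR7.1 Mono. The median log2 fold change was 3.02 among the genes that were higher and -1.25 among those that were lower, against -0.02 over all genes. Of the higher genes, 186 differed at least 2-fold and 101 at least 8-fold, whereas 22 of the lower genes reached 2-fold. In 179 of the 232 genes the groups did not overlap. At an unadjusted p under 0.05, 485 of the 11030 genes were higher and 338 lower. With 2.1% of all genes called, a short list holds few calls or none at that share. The 199 higher genes include 49 members of the mitosis or S phase lists, and 150 genes on neither list. The 12 largest rises with separate groups were those of Wfdc21, S100a9, Spag5, S100a8, Lrg1, Elane, Lcn2, Oip5, Bub1, Ankle1, Cenpi and Ncapg, which hold granule and acute-phase genes beside spindle and kinetochore genes. Each collection date held mice of both genotypes. On 13 and on 26 December 199 of 199 higher genes had the higher mean in TLR7.1 mice, and on 21 December, with 1 WT mouse, 193 did. These genes were called from the same libraries, so this agreement is in large part set by their choice. The count of lower genes depends on the fit: with the spread estimated from the 12 Mono libraries alone, 456 of 9878 genes tested were called higher and 281 lower, including 206 of the 232. Counts of list members from that fit stand against these larger shares. Without TLR7.1 mice 24261 and 24380, which stand apart in some granule genes, 118 were higher and 8 lower. No other pair of mice was left out. Whether a call lost in this way reflects these mice or the smaller group was therefore not tested.

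**Figure D1:**
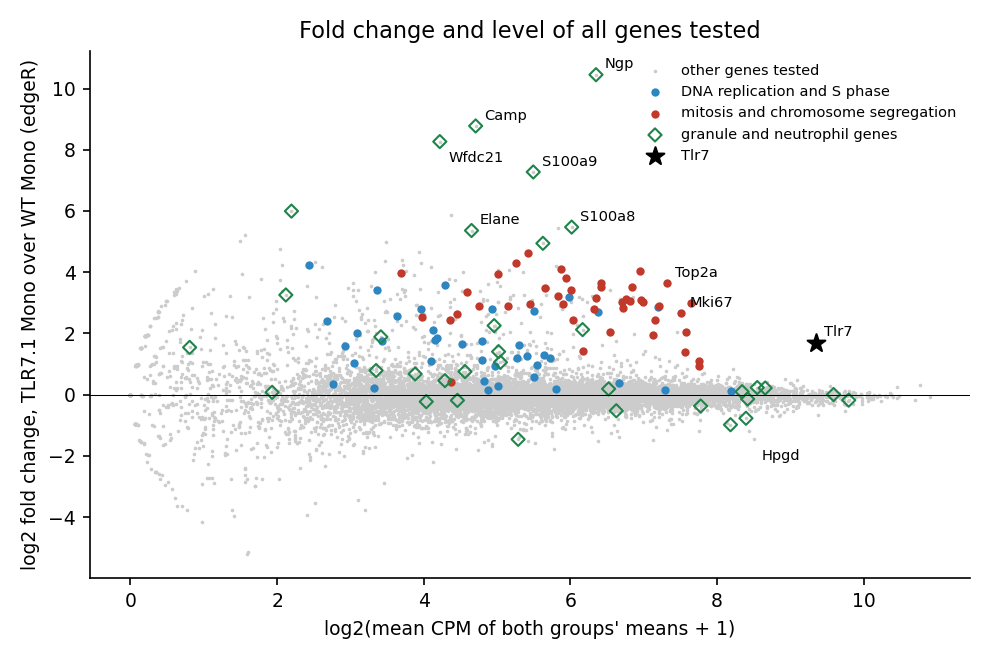
Log2 fold change of TLR7.1 over WT Mono (y axis) against mean level on a log2(CPM + 1) scale (x axis) for the 11030 genes tested, with the mitosis, S phase and granule lists and Tlr7 marked. Mitosis genes lie between 0.42 and 4.64, all above 0, and the largest folds belong to granule genes of low level.

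Genes of mitosis rose together. Of 43 tested members, 38 were higher and 0 lower, where 1.8% of all genes were called higher. Their median log2 fold change was 2.99 against -0.02 over all genes. In 41 of the 43 the groups did not overlap, against 3.04% of all genes. The summed level of the list was 688 to 1653 CPM in the WT libraries and 4513 to 8160.1 CPM in the TLR7.1 libraries, so that the lowest TLR7.1 library exceeded the highest WT library. Within dates, the TLR7.1 mean was 6.82, 3.02 and 6.97 times the WT mean on 13, 21 and 26 December. These are bulk libraries, in which fewer cells of a type and less RNA per cell cannot be told apart, so neither the share of dividing cells nor their RNA content is measured. Without mice 24261 and 24380, 33 members were called. The summed level of the erythroid markers, whose cells also divide in the spleen, was 111 to 373 CPM in WT and 124 to 447 CPM in TLR7.1, with overlap. Within dates the TLR7.1 mean of this sum was 1.18, 1.51 and 3.57 times the WT mean. The part of erythroid cells in the mitosis genes was not tested.

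**Figure D2:**
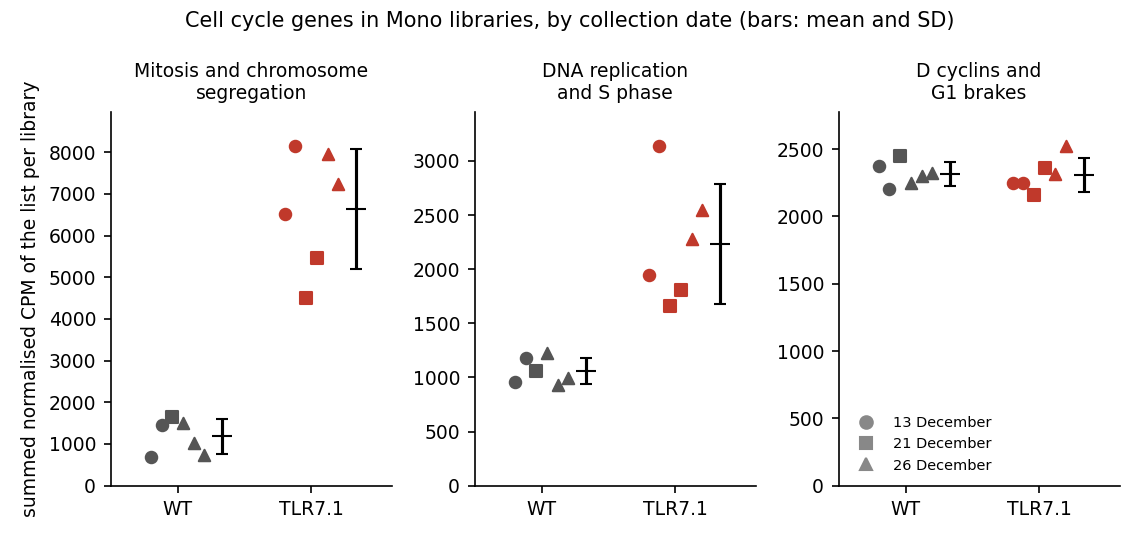
Summed normalised CPM (y axis, from 0) of the mitosis, S phase and G1 lists in each Mono library, with symbols for the collection date and bars for the mean and SD of 6 libraries. The TLR7.1 libraries lie above all WT libraries in the first and second panel, the groups overlap in the third, and those of 21 December are the lowest TLR7.1 libraries in both of the former.

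The higher genes cover entry into mitosis, the spindle and its checkpoint. Mki67, the standard marker of cycling cells, ranged from 30.5 to 75.2 CPM (median 47.2) in WT and from 197 to 412 CPM (median 313) in TLR7.1. Its groups were separate by a wide margin, with a log2 fold change of 2.66 ± 0.327 (adjusted p = 2.76e-06). Top2a, the topoisomerase that untangles sister chromosomes, ranged from 4.69 to 39.2 CPM (median 26.5) in WT and from 184 to 403 CPM (median 302) in TLR7.1, and its change was 3.64 ± 0.356 (adjusted p = 3.86e-08). Cdk1, the kinase that drives entry into mitosis, ranged from 1.71 to 42.2 CPM (median 19.5) and 135 to 245 CPM (median 200.2), a change of 3.14 ± 0.563 (adjusted p = 7.01e-04). In these 3 genes no TLR7.1 library fell among the WT libraries. Ccnb2, a cyclin that partners Cdk1, stood at 5.99 to 87.7 CPM (median 49.2) in WT and at 259.9 to 443 CPM (median 368) in TLR7.1, a change of 2.99 ± 0.472 (adjusted p = 1.18e-04). The S and G2 cyclin Ccna2 changed by 3.51 ± 0.521 (adjusted p = 4.28e-05). The mitotic kinases Aurka, Aurkb and Plk1 changed by 2.84, 1.94 and 3.49 on the log2 scale (adjusted p = 0.00130, 0.0143 and 0.00195). The spindle motor Kif11 stood at 0.586 to 10.3 CPM (median 6.16) in WT and at 57.5 to 136 CPM (median 125) in TLR7.1, a change of 4.09 ± 0.512 (adjusted p = 3.54e-06). Nusap1, which bundles spindle microtubules, stood at 0.586 to 38.6 CPM (median 9.26) and at 167 to 294 CPM (median 228), a change of 4.05 ± 0.468 (adjusted p = 9.01e-07). Bub1, a kinase of the spindle checkpoint, stood at 0.586 to 7.73 CPM (median 0.845) in WT and at 33.9 to 103 CPM (median 84.9) in TLR7.1, a change of 4.64 ± 0.879 (adjusted p = 0.00110). Its lowest TLR7.1 value stood apart from the other 5. Outside the list, Spag5, a spindle protein, had 0 to 1.92 CPM (median 0.327) in WT and 12.1 to 57.7 CPM (median 42.6) in TLR7.1, a change of 5.86 ± 0.908 (adjusted p = 7.42e-05). Among the other largest rises, Oip5 and Cenpi, which act at the centromere, changed by 4.65 ± 0.892 (adjusted p = 0.00128) and 4.31 ± 0.773 (adjusted p = 6.42e-04), and the nuclease Ankle1 by 4.41 ± 0.915 (adjusted p = 0.00306), all 3 without overlap. The 5 mitosis members that were not called were Cks2, Racgap1, Kif23, Foxm1 and Sgo1, with log2 fold changes from 0.42 for Cks2 to 2.90 for Sgo1 and adjusted p from 0.0502 for Kif23 to 1 for Cks2.

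All measured subunits of the Ndc80 and condensin I complexes were higher. The 4 subunits of the Ndc80 complex, which ties kinetochores to microtubules, had log2 fold changes of 3.09 for Ndc80, 3.77 for Nuf2, 3.40 for Spc24 and 3.11 for Spc25. Their summed level was 8.21 to 96.8 CPM in WT and 264 to 640.2 CPM in TLR7.1. Of the 5 subunits of condensin I, which compacts chromosomes, Ncapg changed by 4.31 ± 0.695 (adjusted p = 1.45e-04), Ncapd2 by 3.93 ± 0.557 (adjusted p = 2.52e-05) and Ncaph by 3.19 ± 0.528 (adjusted p = 2.01e-04). Smc2 and Smc4 belong to both condensins, and changed by 3.02 ± 0.322 (adjusted p = 2.21e-07) and 1.38 ± 0.214 (adjusted p = 7.42e-05). Smc4 stood at 77.8 to 137 CPM (median 107) in WT and at 199 to 345 CPM (median 269) in TLR7.1. In none of these 9 genes did the groups overlap. Ndc80 itself was no longer called without mice 24261 and 24380 (log2 fold change 2.90, adjusted p = 0.0573). Both complexes were chosen after their values had been seen.

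Many late cell cycle genes share 2 promoter motifs, the cell cycle genes homology region, which is read as TTTGAA and bound by repressor and activator complexes of the cycle, and CCAAT, the site of NF-Y. Each was searched on both strands, so that its reverse complement counted too, in the 250 bases before each RefSeq gene start of GRCm38.p6. Neighbouring matches may share 1 or 2 bases, which happened in none of the sequences printed. Of 45 mitosis genes 37 had a promoter in the table. TTTGAA was present in 37.8% of them, in 28.7% of 157 promoters of genes higher in TLR7.1 Mono and in 18.3% of all 27025 promoters. CCAAT was present in 81.1%, 62.4% and 37.5%, and both motifs together in 35.1%, 21.0% and 6.45%. Among the genes tested, 12.9% held TTTGAA, 40.7% CCAAT and 4.80% both. These shares are descriptions without a test, and a match is no proof of a site. In at least 8 called mitosis genes both motifs lay within 120 bases of the start, as a single chromosome was left out of this count. The following 5 of them, for the topoisomerase, the spindle motor, the ubiquitin-conjugating enzyme of mitotic exit, the spindle midzone protein and the mitotic kinase, were picked as examples with their sequences in view, and not all of the 8 share their arrangement. In Ect2 the only TTTGAA begins at position -114 with each CCAAT downstream of it, and in Cdc20 a CCAAT lies on either side of it. Each is written 5′ to 3′ on the gene's strand, ends at the base before the start, and has the motifs in capitals.
Top2a: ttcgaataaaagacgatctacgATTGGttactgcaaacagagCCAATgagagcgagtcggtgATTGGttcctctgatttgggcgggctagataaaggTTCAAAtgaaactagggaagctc
Kif11: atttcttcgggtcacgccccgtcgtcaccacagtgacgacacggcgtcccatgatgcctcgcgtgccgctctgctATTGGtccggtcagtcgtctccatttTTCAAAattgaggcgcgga
Ube2c: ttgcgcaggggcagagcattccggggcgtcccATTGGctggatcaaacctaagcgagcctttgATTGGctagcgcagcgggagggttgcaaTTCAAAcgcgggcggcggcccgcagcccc
Prc1: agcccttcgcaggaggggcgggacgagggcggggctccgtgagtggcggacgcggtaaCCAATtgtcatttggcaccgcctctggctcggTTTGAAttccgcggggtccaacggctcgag
Cdk1: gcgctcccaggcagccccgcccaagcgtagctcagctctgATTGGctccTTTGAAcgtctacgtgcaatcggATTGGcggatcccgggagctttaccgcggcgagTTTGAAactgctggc
They come from chr11:99024190-99024309 on the minus strand (Top2a), chr19:37376262-37376381 on the plus strand (Kif11), chr2:164769809-164769928 on the plus strand (Ube2c), chr7:80294356-80294475 on the plus strand (Prc1) and chr10:69352913-69353032 on the minus strand (Cdk1). In these 5 examples a TTTGAA, on either strand, begins at position -30 to -15 from the start, with CCAAT, on either strand, upstream of it. Ube2c changed by 2.45 ± 0.333 (adjusted p = 1.38e-05) and Prc1 by 3.04 ± 0.447 (adjusted p = 3.88e-05) in TLR7.1 Mono, beside the values of Top2a, Kif11 and Cdk1 given above.

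Among genes of DNA replication 11 rose and most did not pass the test. Of 39 tested members 11 were higher, against 1.8% of all genes, and 0 lower, and all 39 had a log2 fold change above 0, with a median of 1.59. The summed level was 934 to 1223 CPM in WT and 1660.3 to 3142 CPM in TLR7.1, without overlap. The TLR7.1 mean was 2.39, 1.64 and 2.30 times the WT mean on the 3 dates. Rrm2 and Rrm1, the subunits of ribonucleotide reductase that makes deoxynucleotides, changed by 3.19 ± 0.601 (adjusted p = 0.00110) and 2.68 ± 0.366 (adjusted p = 1.4e-05). Rrm2 ranged from 0 to 27.5 CPM (median 11.4) in WT and from 49.1 to 206 CPM (median 107) in TLR7.1. Tyms, which makes thymidylate, changed by 2.75 ± 0.539 (adjusted p = 0.00156). Prim1, the primase, ranged from 0 to 7.19 CPM (median 1.89) and 5.45 to 81.3 CPM (median 31.0) and changed by 3.58 ± 0.674 (adjusted p = 0.00108), and Lig1, the ligase that joins Okazaki fragments, by 2.81 ± 0.488 (adjusted p = 4.32e-04), each with overlapping groups. Asf1b, a histone chaperone, ranged from 8.55 to 73.9 CPM (median 30.0) and 165 to 366 CPM (median 239.9), and changed by 2.87 ± 0.497 (adjusted p = 4.32e-04). The 6 subunits of the replicative MCM helicase were not called, although their log2 fold changes were all above 0, from 0.58 for Mcm4 to 1.63 for Mcm5 (adjusted p = 1 and 0.0511). Pcna, the sliding clamp, and Cdc6 and Cdt1, which load the helicase in G1, changed by 0.20, 0.33 and 0.16 and were not called (each adjusted p = 1). With the 12 Mono libraries alone 20 members were called higher, Mcm5 and Mcm7 among them, where that fit called 456 of 9878 genes higher. Without mice 24261 and 24380 the count was 7. None of the 20 tested D cyclins and brakes of the G1 phase was called, by edgeR or by DESeq2, with 0 higher and 1 lower at an unadjusted p under 0.05 and a median log2 fold change of -0.02. With the 12 libraries alone 2 were higher and 2 lower, against 456 and 281 of 9878 genes. Ccnd3, a D cyclin, ranged from 284 to 382 CPM (median 344) and 310.3 to 446 CPM (median 339.5), and Btg2, an antiproliferative gene, from 276 to 448 CPM (median 414) and 299 to 387 CPM (median 346). Their groups overlapped.

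Some genes of granules and neutrophils were raised in TLR7.1 Mono, several in all 6 mice and others chiefly in 2. Of 17 tested genes of the primary granule and progenitor list 3 were higher and 0 lower. Of 17 tested genes of the secondary granule and neutrophil list 6 were higher and 1 lower. Among all genes 1.8% were called higher and 0.299% lower. Ms4a3 of the first list and Wfdc21, Ngp and Camp of the second had 0 counts in all WT Mono libraries. They passed the filter only through libraries of other groups, so the counts of higher members are in part set by the filter. The list medians were 0.79 and 0.22, against -0.02 over all genes. The summed levels overlapped, at 1722 to 2111 CPM in WT and 1788 to 1978 CPM in TLR7.1 for the primary list. Elane, the primary granule protease neutrophil elastase, ranged from 0 to 4.18 CPM (median 0.258) in WT and from 23.4 to 90.5 CPM (median 43.4) in TLR7.1. All 6 TLR7.1 libraries were above all WT libraries, and the change was 5.36 ± 0.994 (adjusted p = 0.00122). Prtn3, proteinase 3, which lies next to Elane in the genome, ranged from 12.8 to 40.9 CPM (median 26.7) and 77.5 to 170.2 CPM (median 102), also without overlap, and changed by 2.12 ± 0.468 (adjusted p = 0.00770). Lcn2, the iron-siderophore binding protein lipocalin 2, ranged from 0.515 to 9.41 CPM (median 1.48) and 41.0 to 213 CPM (median 75.7), a change of 4.94 ± 0.791 (adjusted p = 4.37e-04). S100a8, a subunit of calprotectin, ranged from 1.03 to 5.23 CPM (median 2.43) and 63.5 to 228 CPM (median 109), a change of 5.47 ± 1.09 (adjusted p = 0.00242). Lrg1, a secreted glycoprotein outside the list, ranged from 0 to 7.19 CPM (median 1.47) and 61.3 to 204 CPM (median 87.1), a change of 5.45 ± 0.777 (adjusted p = 4.4e-05). Wfdc21, a small secreted protein induced in inflammation, had 0 counts in all WT libraries and 10.3 to 65.3 CPM (median 33.0) in TLR7.1, which is at least 106-fold higher against a floor of 3 counts over the WT group (adjusted p = 0.00229). For these 6 genes the lowest TLR7.1 library was above the highest WT library. Without mice 24261 and 24380 the log2 fold changes of Elane, Lcn2, S100a8 and Lrg1 were 5.54, 4.30, 4.92 and 5.28, still called, while Prtn3, at 1.99, was not (adjusted p = 0.112). Ctsg, another primary granule protease, was at 0 to 17.7 CPM (median 6.35) in WT and 3.03 to 34.5 CPM (median 6.15) in TLR7.1, with overlap. Its log2 fold change was 0.79, and it was not called.

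**Figure D3:**
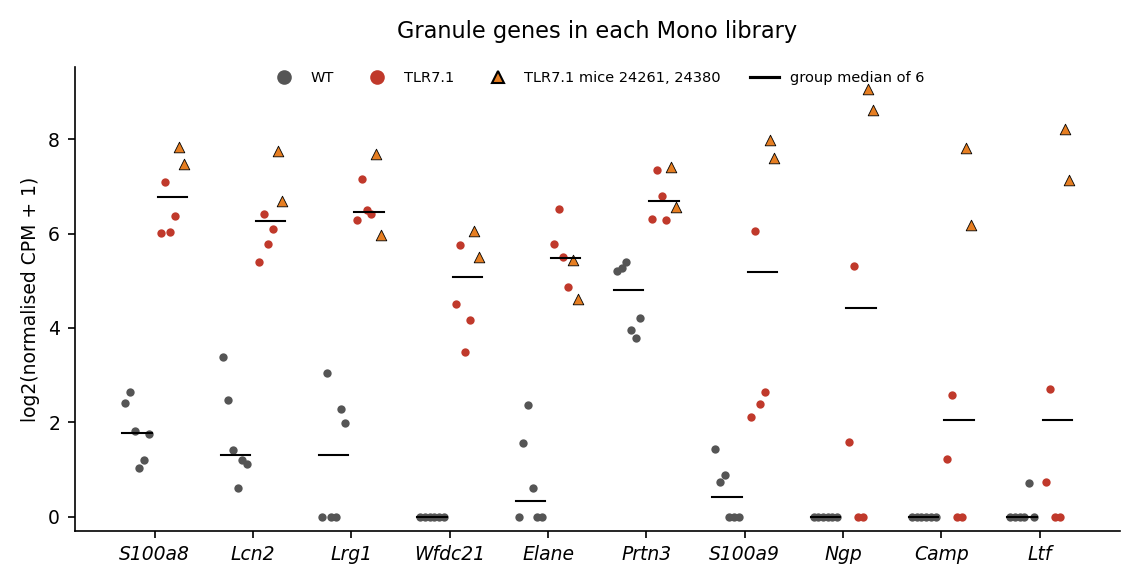
Level of 10 granule and related genes on a log2(CPM + 1) scale (y axis) in each Mono library, with WT in grey, TLR7.1 in red, TLR7.1 mice 24261 and 24380 as triangles and group medians as lines. From S100a8 to S100a9 no TLR7.1 library lies among the WT libraries, while Ngp, Camp and Ltf are at 0 in 2 TLR7.1 libraries and highest in these 2 mice.

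Transcripts of Ngp, Camp and Ltf, which encode matrix proteins of secondary granules, differed widely among the TLR7.1 mice. Ngp, the neutrophilic granule protein, had 0 counts in all WT libraries, and 536 and 389 CPM in TLR7.1 mice 24261 and 24380, 38.8 in mouse 24107, 1.98 in mouse 24068 and 0 in mice 24304 and 24308. Camp, the precursor of cathelicidin, was also at 0 in all WT libraries and in mice 24304 and 24308, and at 224 and 71.2 CPM in mice 24261 and 24380, 4.92 in mouse 24107 and 1.32 in mouse 24068. Ltf, lactoferrin, did not pass the filter and was not tested. It was at up to 0.640 CPM in WT, 298 and 139 in mice 24261 and 24380, 5.54 in mouse 24107, 0.661 in mouse 24068 and 0 in mice 24304 and 24308. These 3 genes thus shared the order of the TLR7.1 mice. Mice 24261 and 24380 were collected on 26 December, and 24304 and 24308 on 21 December. Ngp and Camp were called (adjusted p = 0.0350 and 0.0122), but not without mice 24261 and 24380 (adjusted p = 0.475 and 0.628). S100a9, the partner of S100a8, was 253 and 194 CPM in those mice, 65.9 in mouse 24107 and 3.31 to 5.25 in the other 3 TLR7.1 mice, against at most 1.71 in WT. Its change of 7.27 ± 1.57 (adjusted p = 0.00595) lost its call without both mice (log2 fold change 5.09, adjusted p = 0.124). Cd177, a neutrophil surface antigen, was lower, at 341 to 428 CPM (median 390.2) in WT and 152 to 233 CPM (median 189) in TLR7.1 without overlap, a change of -0.98 ± 0.254 (adjusted p = 0.0316). That call was lost when any 1 of 10 of the 12 libraries was left out. It was also lost without mice 24261 and 24380 together, although the log2 fold change was then -1.03 (adjusted p = 0.170).

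Some defining markers of neutrophils and of progenitors were near their floor, and other members of the same lists were not. Ly6g, Cxcr2 and Retnlg had 0 counts in all WT libraries and at most 5.41, 7.21 and 3.59 CPM in TLR7.1, and Mmp9 had 0 counts in both groups. Of the 28 genes of the neutrophil list in the table, 5 were at 0 in both groups and 8 at 0 in WT only. The summed level of the list was 2266 to 3074 CPM in WT and 2400.1 to 4332 CPM in TLR7.1, the latter highest in mice 24261 and 24380, and its highest levels were those of Anxa1, Cd177, Mmp8 and Ifitm6, at WT medians of 769.7, 390.2, 381 and 349.8 CPM. Csf3r, the receptor for granulocyte colony-stimulating factor, had medians of 246 CPM in WT and 199.5 CPM in TLR7.1, and Trem1, an activating receptor of myeloid cells, of 17.1 and 47.0 CPM. Flt3, a cytokine receptor of progenitors and dendritic cells, had medians of 51.6 and 19.3 CPM. Mpo, the granule peroxidase of progenitors, was at most 3.63 CPM and Kit, the progenitor cytokine receptor, at most 4.31 CPM in any Mono library. Ms4a3, a marker of granulocyte-monocyte progenitors, was called (adjusted p = 0.0396), with 0 counts in WT and from 0 to 21.0 CPM in TLR7.1. The part that other cells in the sorted fraction had in these values was not tested.

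Markers of the Ly6C-high state were called in both directions, and those of the Ly6C-low state only as lower. Over all genes 1.8% were called higher and 0.299% lower. Of 33 tested genes of the Ly6C-high list 4 were higher and 1, Cd177, lower, with a median log2 fold change of 0.03. Beside S100a8 and S100a9 these were Vcan, the matrix proteoglycan versican, at 57.2 to 138 CPM (median 87.5) in WT and 148 to 279.8 CPM (median 191) in TLR7.1, with a change of 1.18 ± 0.282 (adjusted p = 0.0164), and Dmkn, dermokine, at 0.586 to 13.7 CPM (median 5.16) and 18.2 to 49.1 CPM (median 36.8), with a change of 2.46 ± 0.601 (adjusted p = 0.0254). Their groups did not overlap, but without mice 24261 and 24380 only 1 member of the list, S100a8, was called. Vcan and Dmkn then changed by 1.04 and 2.41. Of 31 tested genes of the Ly6C-low list 0 were higher and 3 lower, with a median of -0.39 and 5 of 31 above 0. The summed level was 5591 to 6794 CPM in WT and 4132 to 5730.4 CPM in TLR7.1, and within dates it was 0.789, 0.748 and 0.795 times the WT mean. Hes1, a Notch target and transcriptional repressor, ranged from 36.0 to 98.5 CPM (median 77.3) in WT and from 21.6 to 48.7 CPM (median 27.2) in TLR7.1, a change of -1.35 ± 0.262 (adjusted p = 0.00138). Ms4a7, a membrane protein of macrophages, ranged from 71.9 to 136 CPM (median 92.4) and 20.7 to 73.9 CPM (median 44.1), a change of -0.99 ± 0.222 (adjusted p = 0.00770). Adgre4, the adhesion receptor FIRE, ranged from 669.6 to 884 CPM (median 838) and 319 to 672 CPM (median 564), a change of -0.67 ± 0.167 (adjusted p = 0.0197). The groups overlapped in all 3. Nr4a1, the nuclear receptor that Ly6C-low monocytes need, and Cx3cr1, their fractalkine receptor, changed by -0.39 ± 0.278 (adjusted p = 1) and -0.55 ± 0.328 (adjusted p = 0.875), and were not called. With the 12 Mono libraries alone 10 members were called lower, against 281 of 9878 genes, with Cx3cr1, Cd36 and Ace among these members. Without mice 24261 and 24380 only Hes1 was, and Ms4a7 and Adgre4 changed by -0.72 and -0.66.

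Among the genes that fell, 11 met the rule for the largest changes with separate groups, and they include metabolic and signalling genes. Acss1, the mitochondrial acetyl-CoA synthetase, ranged from 38.6 to 92.7 CPM (median 72.9) in WT and from 14.2 to 33.2 CPM (median 21.8) in TLR7.1, a change of -1.56 ± 0.283 (adjusted p = 7.23e-04). Hpgd, which inactivates prostaglandins, ranged from 412 to 705 CPM (median 516) and 106 to 309 CPM (median 192), a change of -1.46 ± 0.284 (adjusted p = 0.00151). Dusp6, a phosphatase that switches off ERK and is itself induced by it, ranged from 402 to 615 CPM (median 442) and 145 to 290.1 CPM (median 211), a change of -1.19 ± 0.244 (adjusted p = 0.00249). Slc46a3, a lysosomal transporter, changed by -1.18 ± 0.221 (adjusted p = 9.96e-04), Txnip, the inhibitor of thioredoxin, by -0.70 ± 0.138 (adjusted p = 0.00161), and Slc11a1, the phagosomal metal transporter Nramp1, by -0.67 ± 0.133 (adjusted p = 0.00169). Each TLR7.1 library was below each WT library in these 6 genes. Zbtb20, Tgfbr1, Ogt and Tspan13, with changes of -1.10, -0.74, -0.68 and -0.46, were separate too, but lost their calls when any 1 of 7, 10, 2 and 8 of the 12 libraries was left out. Without mice 24261 and 24380 together, Tspan13 changed by -0.36 (adjusted p = 0.380). Dusp6 lost its call without mice 24261 and 24380 (log2 fold change -1.08, adjusted p = 0.0571). Acss1, Hpgd, Slc46a3, Txnip and Slc11a1 were called under each of the 23 alternatives run on them. With 2.1% of all genes called, Tgfbr1, a receptor of TGF-beta, was the only called member of 16 tested receptors for colony-stimulating and progenitor cytokines. Their summed level was 3837 to 4319 CPM in WT and 2959 to 3686 CPM in TLR7.1, without overlap. With the 12 libraries alone 5 of these receptors were called lower, Csf1r, Flt3 and Tnfrsf1b among them, where that fit called 281 of 9878 genes lower.

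Several complement genes were higher. Of 19 tested members 5 were higher, against 1.8% of all genes, and 0 lower, with a median log2 fold change of 0.50. The 3 chains of C1q, which binds immune complexes and dying cells, rose together. C1qa ranged from 1.55 to 11.1 CPM (median 4.55) in WT and from 10.2 to 37.6 CPM (median 29.9) in TLR7.1, a change of 2.38 ± 0.346 (adjusted p = 3.39e-05), and 1 TLR7.1 library fell within the WT range. C1qc ranged from 2.56 to 28.1 CPM (median 10.0) and 33.8 to 65.3 CPM (median 52.7), without overlap, a change of 1.86 ± 0.319 (adjusted p = 3.8e-04). C1qb ranged from 23.1 to 105 CPM (median 73.4) and 91.2 to 199.5 CPM (median 158), with overlap, a change of 1.14 ± 0.265 (adjusted p = 0.0110). The others were Cfp, properdin, at 222 to 277 CPM (median 259) and 286 to 464 CPM (median 375) with a change of 0.54 ± 0.148 (adjusted p = 0.0429), and C4b, at 1.26 ± 2.31 and 16.2 ± 12.8 CPM (mean ± SD, n = 6 each) with a change of 3.54 ± 0.685 (adjusted p = 0.00140). C1qb and Cfp, and Axl given below, lost their calls without mice 24261 and 24380. The C1q chains also stand on the list of red pulp macrophage identity genes, where of 30 tested members 3 were higher, all of them C1q chains, and 1 was lower. The lower one was Axl, a receptor for dying cells, at 43.6 to 104 CPM (median 92.3) in WT and 33.8 to 62.1 CPM (median 46.2) in TLR7.1, with overlap and a change of -0.86 ± 0.230 (adjusted p = 0.0347). Spic, the transcription factor that red pulp macrophages need, was at 49.2 to 171 CPM (median 108) and 48.7 to 131 CPM (median 75.5) and not called (adjusted p = 0.575). RPM of WT mice held a median of 995 CPM of C1qa and 3367 CPM of Vcam1, so the C1q levels of Mono stayed far below those of RPM, and Vcam1 was at most 5.39 CPM in TLR7.1 Mono and 17.1 CPM in WT Mono.

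Genes downstream of TLR7 were called no more often than the 2.1% of all genes, a share at which short lists hold few calls or none. At an unadjusted p under 0.05, 485 of 11030 genes were higher and 338 lower. None of the 40 tested MyD88 pathway genes was called by edgeR, with 0 higher and 5 lower at an unadjusted p under 0.05 and a median log2 fold change of -0.17, and DESeq2 called 1 lower. Ikbkb, the kinase that releases NF-kB, ranged from 548 to 675 CPM (median 629) and 452 to 594 CPM (median 559), and Dusp1, a feedback phosphatase, from 667 to 1340.2 CPM (median 1163) and 899 to 1614 CPM (median 1019), both with overlap. With the 12 libraries alone 4 members were called lower, namely Traf3, Dusp2, Nfkbiz and Irak2, where that fit called 281 of 9878 genes lower. None of 8 tested interferon regulatory factors was called by edgeR or DESeq2, with 0 higher and 1 lower unadjusted. Irf7, the master regulator of interferon induction by TLR7, ranged from 501 to 692 CPM (median 651) in WT and 475 to 661 CPM (median 576) in TLR7.1 (change -0.14 ± 0.219, adjusted p = 1), and Irf5, another factor that TLR7 activates, changed by -0.24 ± 0.165 (adjusted p = 0.997). Their groups overlapped.

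No response gene of type I interferon was called by edgeR, where 2.1% of all genes were called. Of 56 tested members 0 passed the test in edgeR, 1 higher and 1 lower had an unadjusted p under 0.05, DESeq2 called 1 higher, and the median log2 fold change was -0.02. The summed level was 11337 to 18266 CPM in WT and 12477 to 16026 CPM in TLR7.1, with overlap. Isg15, an ubiquitin-like interferon response protein, ranged from 62.4 to 113 CPM (median 84.2) and 71.2 to 111 CPM (median 86.4) (change 0.10 ± 0.30, adjusted p = 1), and Ifit3, which binds viral RNA, from 80.4 to 249 CPM (median 210.5) and 54.1 to 203 CPM (median 152) (change -0.39 ± 0.344, adjusted p = 1). Neither gene's groups were separate. The gene that the fit to 12 libraries called was Ly6a, also known as Sca-1, at 69.1 ± 38.5 CPM (mean ± SD, n = 6) in WT and 187 ± 47.0 in TLR7.1, where the 30-library fit gave 1.43 ± 0.434 (adjusted p = 0.0896). Among 22 tested interferon gamma response genes 0 were called by edgeR or DESeq2, with 1 higher and 0 lower unadjusted and a median of 0.13. In summed level 1 WT library, that of mouse 24117 at 6102 CPM, stood apart from the other 5. With that library left out, edgeR called 2 interferon gamma members and 1 type I member higher. Limma-voom called 1 member of each list higher.

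Of 39 tested inflammatory cytokine and NF-kB target genes 2 were higher and 1 lower, where 1.8% of all genes were called higher and 0.299% lower. Saa3, an acute-phase protein with close paralogs, ranged from 0.586 to 58.5 CPM (median 14.0) in WT and from 76.0 to 289 CPM (median 179) in TLR7.1, without overlap, a change of 3.12 ± 0.797 (adjusted p = 0.0316). Fpr1, the receptor for formyl peptides, ranged from 1.76 to 26.2 CPM (median 6.34) and 14.5 to 47.3 CPM (median 28.1), with overlap, a change of 1.62 ± 0.393 (adjusted p = 0.0153). Cd83, a surface protein of activated antigen-presenting cells, fell from 85.8 to 226 CPM (median 145) to 19.1 to 118 CPM (median 42.2), a change of -1.37 ± 0.299 (adjusted p = 0.00543). None of the 3 was called without mice 24261 and 24380, where they changed by 2.89, 1.23 and -1.10. No member of 44 tested monocyte and macrophage transcription factors was called by edgeR, where 2.1% of all genes were called. At an unadjusted p under 0.05, 1 was higher and 5 lower, and DESeq2 called 1 higher. Spi1 and Cebpb, which specify myeloid cells, changed by -0.10 ± 0.166 (adjusted p = 1) and -0.07 ± 0.216 (adjusted p = 1).

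**Figure D4:**
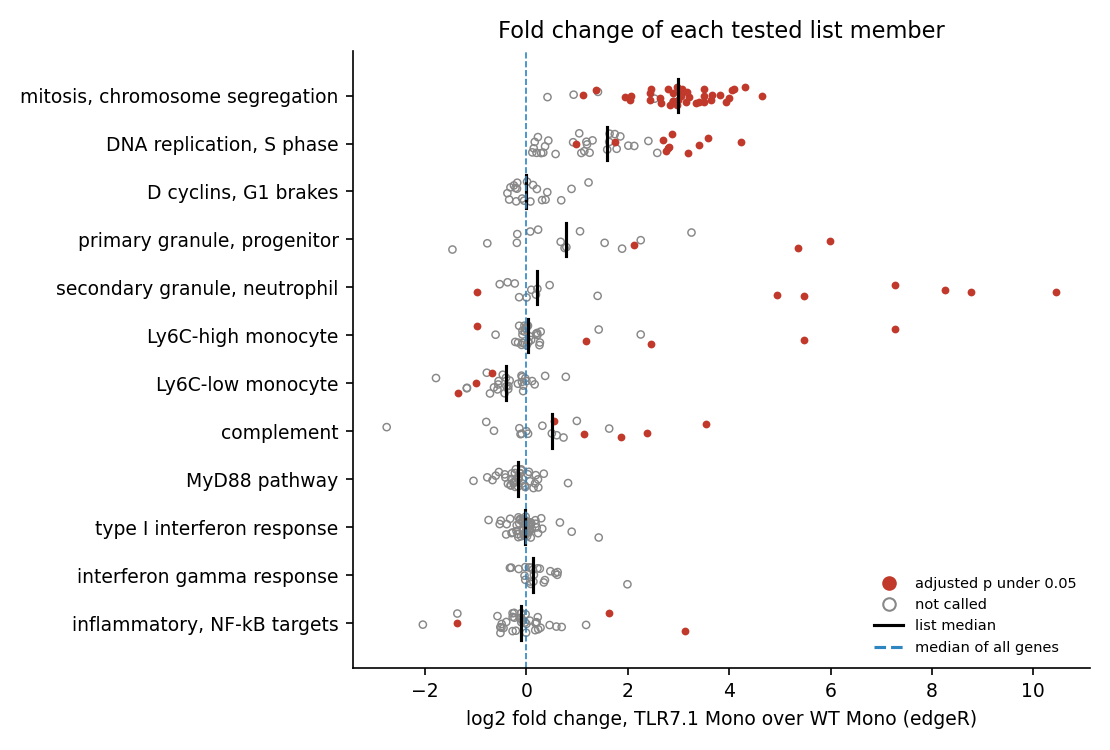
Log2 fold change of TLR7.1 over WT Mono (x axis) of each tested member of 12 lists, filled where the adjusted p was under 0.05, with a line at the list median and a dashed line at the median of all genes. Mitosis genes form a block at a median of 2.99, S phase genes spread from 0.12 to 4.23, and the interferon and MyD88 lists centre near 0 with no filled points.

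Genes of phagocytosis and iron handling had 2 calls each, where 2.1% of all genes were called. Of 37 tested phagocytosis and scavenger genes 1 was higher and 1, Axl, lower. With the 12 libraries alone 1 was higher and 4 lower, against 456 and 281 of 9878 genes. The higher one was Cd300lf, a receptor for phosphatidylserine and ceramide, at 39.3 to 196 CPM (median 119) in WT and 169 to 306 CPM (median 226) in TLR7.1 (change 0.98 ± 0.245, adjusted p = 0.0209), with overlap. Of 27 tested iron and heme genes 1 was higher, Lcn2, and 1 lower, Slc11a1, which are given above. Genes named after their values had been seen include F10, coagulation factor X, at 174 to 257 CPM (median 207) and 308 to 487 CPM (median 371) (change 0.85 ± 0.199, adjusted p = 0.0118), and Gatm, the first enzyme of creatine synthesis, at 5.99 to 46.4 CPM (median 24.3) and 61.2 to 138 CPM (median 109) (change 1.99 ± 0.327, adjusted p = 1.86e-04). Cd24a, a surface antigen of immature cells, ranged from 3.61 to 21.1 CPM (median 14.3) and 41.4 to 76.3 CPM (median 57.4) (change 2.05 ± 0.422, adjusted p = 0.00286), and Ezh2, the histone methyltransferase of dividing cells, changed by 1.53 ± 0.279 (adjusted p = 7.29e-04). In these 4 genes the groups did not overlap.

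Among markers of other cells, an erythroid gene was higher and B cell genes lower. Of 23 tested erythroid markers, with a median log2 fold change of 0.99, 1 was higher and 0 lower, where 1.8% of all genes were called higher. That gene was Car2, carbonic anhydrase 2, at 0 to 7.70 CPM (median 0.293) in WT and 15.9 to 52.5 CPM (median 28.8) in TLR7.1, without overlap, a change of 4.17 ± 0.63 (adjusted p = 6.81e-05). The summed erythroid level was 111 to 373 CPM in WT and 124 to 447 CPM in TLR7.1, with overlap. Its TLR7.1 mean was 1.18, 1.51 and 3.57 times the WT mean on 13, 21 and 26 December. WT and TLR7.1 medians were 15.5 and 90.3 CPM for Hbb-bs, 8.19 and 28.5 CPM for Hba-a1 and 0.418 and 13.1 CPM for Alas2. In the other direction, Gypc had medians of 86.3 and 67.1 CPM. Slc4a1, the anchor of the red cell membrane, was at most 1.28 and 1.8 CPM, and none of these genes was called. Of 18 tested B cell markers, with a median of -1.16, 0 were higher and 2 lower, where 0.299% of all genes were called lower. They were Bank1, a B cell adaptor, at 31.7 ± 12.2 and 13.9 ± 7.12 CPM, and Cr2, complement receptor 2, at 14.1 ± 14.0 and 1.13 ± 1.32 CPM (mean ± SD, n = 6 each), with changes of -1.20 ± 0.258 (adjusted p = 0.00472) and -3.46 ± 0.902 (adjusted p = 0.0299). The summed B cell level was 1017 to 1423 CPM in WT and 730.4 to 1140.4 CPM in TLR7.1, and Ighm alone had medians of 595 and 528 CPM. Both B cell calls were lost without mice 24261 and 24380. The part of B and erythroid cells in other results was not tested. No member of the megakaryocyte, plasma cell, T and natural killer cell, dendritic cell, basophil or stromal lists was called by edgeR, 2 higher and 4 lower had an unadjusted p under 0.05, and DESeq2 called 1, a plasma cell gene.

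The genotype effect in RPM, sorted from the same mice and without shared libraries, was set beside that in Mono. Of the 199 genes higher in TLR7.1 Mono, 85 were also higher in TLR7.1 RPM, which is 42.7% of the former and 17.2% of the 494 genes (4.48%) higher in RPM. A total of 176 of the 199 had a log2 fold change above 0 in RPM. Of the 33 lower genes, 8 were lower in RPM, 24.2% of them and 1.92% of the 416 genes (3.77%) lower there, and 0 genes had opposite calls. Of the mitosis members 29 and of the S phase members 18 were higher in RPM, with medians of 2.09 and 1.56. Mki67 changed by 2.96 ± 0.354 (adjusted p = 2.1e-06) in RPM and Top2a by 2.11 ± 0.351 (adjusted p = 2.46e-04), and Tlr7 by 2.18 ± 0.230 (adjusted p = 2.6e-07). For Tlr7 the difference between both effects was 0.48 ± 0.308 (adjusted p = 0.660). Because RPM libraries were shallower, with totals from 95002 to 1511480 counts, a missing call there says less than one in Mono.

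The difference between the genotype effects, RPM minus Mono, was called for 76 genes (0.689%), of which 13 were also called in Mono. With the mouse as a block in limma-voom the count was 162, and 126 without that block. C1qa changed by 2.38 in Mono and by -0.02 ± 0.242 (adjusted p = 0.976) in RPM, with a difference of -2.40 ± 0.425 (adjusted p = 0.00240), and C1qc differed by -1.99 ± 0.411 (adjusted p = 0.0117) and Cfp by -0.96 ± 0.209 (adjusted p = 0.0203). Their levels in RPM were high in both genotypes, with medians of 1696 and 1432 CPM for C1qc. Cd38, an NAD-consuming surface enzyme, ranged from 6.68 to 22.2 CPM (median 11.7) in WT Mono and from 33.3 to 113 CPM (median 57.3) in TLR7.1 Mono, a change of 2.35 ± 0.275 (adjusted p = 1.04e-06), while its RPM medians were 639 and 541 CPM, and the difference was -2.59 ± 0.360 (adjusted p = 2e-04). Arhgap19 changed by 2.38 ± 0.319 (adjusted p = 1.21e-05) and F11r, the junctional adhesion molecule A, by 1.76 ± 0.255 (adjusted p = 3.39e-05) in Mono, and their differences were -2.64 ± 0.417 (adjusted p = 6.91e-04) and -2.22 ± 0.373 (adjusted p = 0.00112). Kif11, given above for Mono, changed by 0.90 ± 0.531 (adjusted p = 0.324) in RPM, with a difference of -3.19 ± 0.722 (adjusted p = 0.0247). In the other direction, Acss1 and Ms4a7 fell in Mono and changed by 0.20 ± 0.277 (adjusted p = 0.716) and 0.27 ± 0.212 (adjusted p = 0.494) in RPM, with differences of 1.77 ± 0.395 (adjusted p = 0.0231) and 1.25 ± 0.307 (adjusted p = 0.0431).

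**Figure D5:**
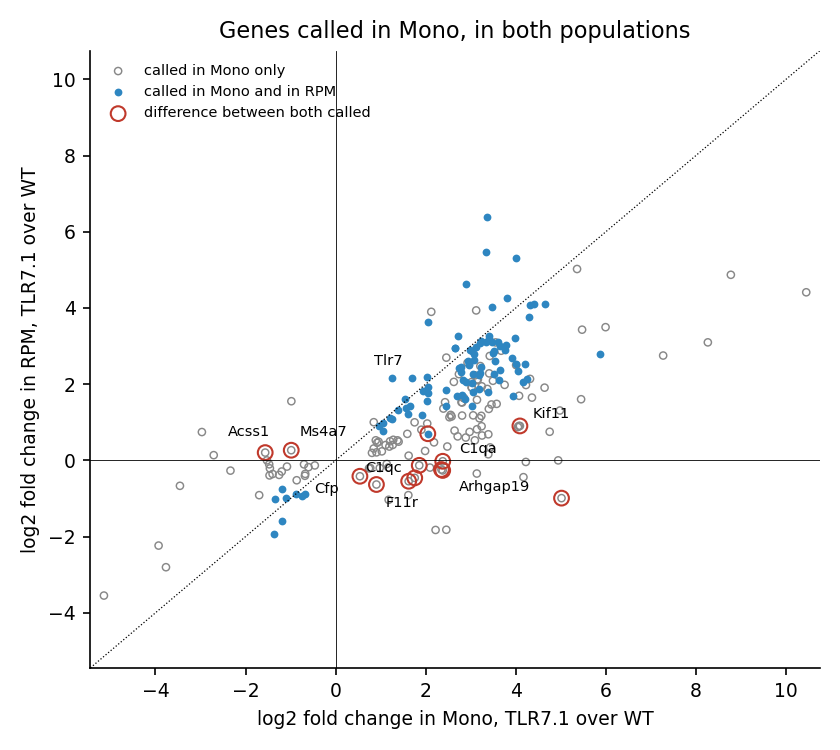
Log2 fold change of TLR7.1 over WT in RPM (y axis) against that in Mono (x axis) for the 232 genes called in Mono, with filled points for genes also called in RPM, rings where the difference was called and a dotted line of equal change. Most of the genes higher in Mono lie above 0 in RPM (176 of 199), and the ringed genes lie between -0.99 (Mras) and 0.90 (Kif11) in RPM.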

How the data were processed

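Gene counts were made by the authors and deposited as 1 table of raw whole-number counts for 37991 Ensembl genes in 30 libraries. Per the labels' protocols, cDNA from 500 sorted cells was amplified with SMART-Seq v4 and tagged with Nextera XT. Per the submitters' processing notes, the build was NCBIM37 and the tools included TopHat and Bowtie, HTSeq 0.4.1, Picard, SAMtools, FastQC and CASAVA 1.8.2, in an order that is not stated. The annotation release, the use of strand and any removal of duplicate reads are not stated in these sources. Without strand, reads of overlapping genes cannot be told apart, and close paralogs may share reads. Symbols covered 99.11% of counts.

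All 30 libraries entered 1 fit with edgeR 4.0.16 (R 4.3.3): filterByExpr, TMM factors, a mean per group and robust quasi-likelihood tests, adjusted by the Benjamini-Hochberg method over 11030 genes. The script was tested on simulated data. The genotype effect in Mono was unpaired, and its difference from that in RPM was a contrast of the same fit. The mouse numbers are those of the animals, so Mono and RPM of a mouse are paired. Their residuals correlated between -0.0055 and 0.101 per mouse, and the consensus correlation was 0.047. DESeq2 1.42.0, limma-voom (limma 3.58.1) and other filters, scalings, terms and subsets were alternatives.

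Named genes were the gate genes, the 12 largest rises and falls among called genes at 20 CPM or more with separate groups, up to 4 called members per list or the 2 of highest level in a list without calls, and up to 5 genes per direction of the difference. Others were chosen after their values were seen, and all members and lists with earlier results of these data known. Counts cover reads, not molecules. The edgeR p-values of the main fit rest on a spread per gene estimated over all 30 libraries, RPM and hemophagocytes included, with 6 mice per group.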

Additional observations from a re-analysis of the deposited data

Results flagged for a closer look

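In 22 of 223 sets of 6 libraries checked, 1 library stood farther from the other 5 than Dixon's 95% limit allows, and chance gives such a gap in about 1 of 20. In TLR7.1 Mono the library of mouse 24380 was the highest for Hes1 (48.7 CPM), Dusp1 (1614 CPM), Ly6e (1591 CPM), Tmsb4x (868 CPM), Spi1 (921 CPM) and Cebpb (716 CPM). This library also had the lowest total count of the group, 1157446. Mouse 24261 was the highest for Lcn2 (213 CPM) and Camp (224 CPM), and mouse 24107 for Prim1 (81.3 CPM). Mouse 24304 was the highest for Ogt (398 CPM) and the lowest for Bub1 (33.9 CPM). In WT Mono the library that stood apart was the highest one for Arhgap19 (19.9 CPM, mouse 24415) and Mcm5 (53.5 CPM, mouse 24323). The same held for Ncapd2 (12.4 CPM), Mcm3 (52.6 CPM) and Mcm6 (74.2 CPM), all in mouse 24214. Of the summed lists, TLR7.1 mouse 24380 was highest in the endosomal Toll-like receptors (8466 CPM), the Ly6C-high markers (20072 CPM) and the iron genes (4887 CPM). TLR7.1 mouse 24304 was lowest in the inflammatory genes (4377 CPM). WT mouse 24117 was highest in the interferon gamma response genes (6102 CPM) and lowest in the receptors for colony-stimulating factors (3837 CPM).

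For 9 of the genes named, the effect of genotype differed between the cell types in the edgeR test. As RPM minus Mono, the difference in log2 fold change was 1.77 for Acss1 and 1.25 for Ms4a7, which fell in Mono. It was -3.19 for Kif11, -2.64 for Arhgap19, -2.59 for Cd38, -2.40 for C1qa, -2.22 for F11r, -1.99 for C1qc and -0.96 for Cfp, which rose in Mono.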

How the results depend on the processing

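The count of 232 called genes (199 higher, 33 lower) was within 1.5 times of that value for other size factors (233 with RLE, 230 with upper quartile), DESeq2 (325), no further filter (214), a stricter filter (231), collection date (242) or age (237) as a term and a 2-fold minimum (208). With the 12 Mono libraries alone it was 737 of 9878 genes tested (456 higher, 281 lower). Limma-voom gave 405 (299 higher, 106 lower) and, with the mouse as a replicate block, 403 (105 lower). DESeq2 called 64 lower. Without mice 24261 and 24380, an alternative chosen after seeing the data, 126 were called (118 higher, 8 lower). Leaving out 1 library gave 164 to 249 called genes, 145 to 210 higher and 15 to 39 lower. The lower count moved by more than 1.5 times without TLR7.1 mouse 24261 (15), TLR7.1 mouse 24107 (16) or WT mouse 24416 (19). The difference between RPM and Mono effects, called for 76 genes, was called for 209 with DESeq2, 126 with limma-voom, 162 with the replicate block, 37 without mice 24261 and 24380, and 48 to 81 with 1 library left out (50 without TLR7.1 mouse 24261, 48 without WT mouse 24415). The cause of these shifts was not tested. Of 68 named genes that were called, 45 were called under each alternative that gave a value, 23 lost the call under at least 1 and 0 reversed. Of 33 not called, 4 were called under at least 1 (Mcm3, Mcm5, Mcm7 and Cx3cr1). The replicate block changed no other count by more than 1.5 times. The median of all genes moved to between -0.031 and -0.0020 under other scalings. Genes with few counts, such as Mpo and Kit, were too rare to be tested, so differences in them were not detectable at this depth.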

Other observations

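In TLR7.1 Mono, among 37 tested subunits of oxidative phosphorylation, the mitochondrial machinery that makes ATP, all 37 had a log2 fold change above 0, from 0.031 to 0.552 with a median of 0.15, against a median of -0.02 over all genes. None was called by edgeR or DESeq2, and 0 had an unadjusted p under 0.05. The fit to the 12 Mono libraries alone called 1 higher, where it called 456 of 9878 genes higher. Their summed level was 8355 to 10172 CPM in WT and 9637 to 11740.2 CPM in TLR7.1, with overlap, and the ratio of TLR7.1 to WT means on the 3 dates was 1.05, 0.979 and 1.25.

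Genes of cholesterol synthesis, uptake and efflux had summed levels of 2895 to 3637 CPM in WT and 2422 to 2667 CPM in TLR7.1, without overlap, and ratios of 0.753, 0.826 and 0.831 on the 3 dates. Of 26 tested members none was called by edgeR, 1 higher and 2 lower had an unadjusted p under 0.05, and DESeq2 called 1 higher. The fit to 12 libraries called 4 lower, against 281 of 9878 genes. Interferon regulatory factors had summed levels of 2833 to 3404 CPM in WT and 2577 to 2822 CPM in TLR7.1, without overlap, and ratios of 0.859, 0.824 and 0.882, although no member was called by edgeR or DESeq2 and 1 had an unadjusted p under 0.05.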
